A study of Mus musculus with 4 samples.

Results

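The p53 target genes were followed in the mouse lens epithelium after UVB irradiation of the eye. They are 32 genes of the p53 pathway chosen by name, without Cdkn1a, and 28 of them had a probe set of their own among the 19938 genes measured. Each gene was read from its single-gene probe set with the highest mean over the 4 arrays, which left 1 candidate for every member. Trp53, Bax, Gdf15 and Fdxr had no such probe set under their symbols and were not analysed here. By role, the measured genes were 6 of 7 feedback genes, 6 of 6 arrest genes, 10 of 11 death genes and 6 of 8 metabolism genes.

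The UVB group consisted of lens epithelia from right eyes irradiated at 30 mJ/cm2, and the control group of lens epithelia from left eyes of the same mice, covered with aluminum foil. All mice were 8-week-old C57BL/6 males with no transgene or mutation named in the labels, anesthetized for the exposure and killed 24 h later. Each of 2 independent experiments was taken, from the number in the array titles, to have given 1 array per group, so each group had 2 arrays. The methods state 3 mice for the animal experiments without saying how many contributed to an array, so the p-values measure only the spread between these arrays. A difference is given as the log2 signal of the UVB array minus that of the control array of the same experiment, and a log2 fold change is the mean of the 2 differences.

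The transcription factor p53 is held low by the ubiquitin ligase Mdm2 and is stabilized when DNA is damaged, as UVB does through photoproducts between neighbouring pyrimidines. It then activates genes that stop the cell cycle, genes that trigger apoptosis, genes that adjust metabolism and redox balance, and genes such as Mdm2 that switch p53 off again. The best known arrest target, the cyclin-dependent kinase inhibitor Cdkn1a, is not a member here. The lens epithelium is a single cell layer under the anterior capsule that keeps dividing slowly and supplies the fiber cells.

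At 24 h after UVB, the p53 target genes as a group stayed close to their control levels. The median log2 fold change over the 28 genes was 0.018 (0 in experiment 1 and 0.035 in experiment 2), against −0.025 over all genes. After median centring of the arrays it was −0.0025, against −0.045 over all genes. In 25 of the 28 the mean change was under 1.2-fold, as it was in 94.9% of all genes. Plk2 was the only member more than 1.2-fold higher in UVB-irradiated epithelia and higher in both experiments, and Gadd45a and Fas were the only members more than 1.2-fold lower and lower in both. These are 1 of 28 and 2 of 28 genes, where 2.99% of all genes were higher and 1.98% lower by the same rule. In whole tissue, fewer cells of a type and less RNA per cell cannot be told apart.

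None of the 28 genes passed the thresholds of the methods, 1.8-fold and an unadjusted p of 0.01, in a limma fit with the experiment as a block. Over all genes 0.0802% passed as higher and 0% as lower. At an adjusted p of 0.05, 0 members were called by that fit, as were 0% of all genes, and the lowest adjusted p of a member was 0.357. Since no gene reached it, this threshold says nothing of the members in particular. At an unadjusted p of 0.05 it called 6 members higher and 1 lower, where 5.14% and 8.03% of all genes were called. Without the block, limma called 6 members higher and 3 lower at an adjusted p of 0.05, against 6.19% and 12% of all genes. That fit counts 2 residual degrees of freedom although the deposited values had equal means in the 2 experiments in every probe set within rounding, so the fit with the block, which counts 1, is used here. For a single gene, an exact permutation within the 2 pairs cannot give a p below 0.5, and one that ignores the pairs cannot give a p below 0.333.

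The fit also gives an interval for each gene taken singly, which reflects only the spread between these arrays. The 95% interval of the log2 fold change lay within 1.8-fold in either direction for all 28 members, and this was so for 97.9% of all genes. Its upper end alone lay under a 1.8-fold increase in all 28 members and in 98.5% of all genes. It lay within 1.2-fold in either direction for 14 members and for 56.6% of all genes. The widest intervals were those of Eda2r, from −0.46 to 0.71, Gadd45a, from −0.78 to 0.13, and Fas, from −0.74 to 0.13. The probe set that Cdkn1a shares with 4930567H12Rik had log2 signals of 8.24 and 8.17 in UVB-irradiated epithelia, against 6.59 and 6.66 in control epithelia, in experiments 1 and 2. Its log2 fold change of 1.58 passed the thresholds (unadjusted p = 7.40e-04 from limma with the block, adjusted p = 0.357), and its interval, from 1.362 to 1.798, began above the highest interval end of any member, 0.71.

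**Figure D1:**
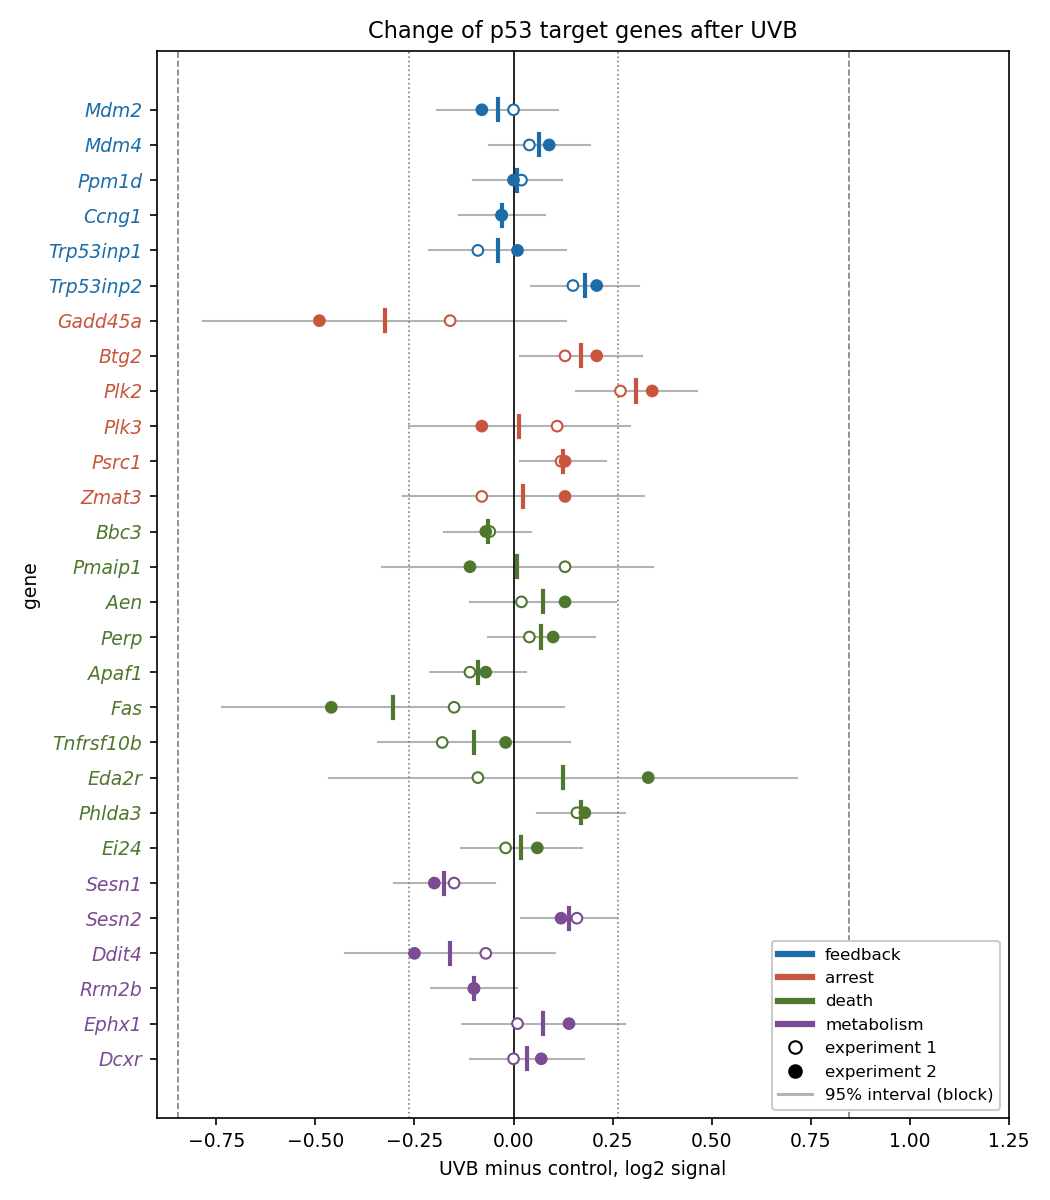
UVB minus control in log2 signal (horizontal) for the 28 measured p53 target genes (vertical), coloured by role. Open circles are experiment 1, filled circles experiment 2, thick bars their mean and grey lines the 95% interval of the limma fit with the experiment as a block; dotted lines mark 1.2-fold and dashed lines 1.8-fold, and no interval reaches the dashed lines.

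Directions were mixed within the group. In 10 of the 28 genes both UVB arrays lay above both control arrays, and in 9 both lay below, against 22.6% and 39.5% of all genes. Since the experiments had equal means in every probe set, the same sign in both entails groups that do not overlap, apart from rounding. Opposite signs likewise entail groups that overlap, so overlap adds nothing to the signs. After median centring of the arrays 8 were higher and 11 lower, and after scaling to a common 75th percentile 13 were higher and 8 lower. Another 6 members moved in opposite directions in the 2 experiments, as did 30.8% of all genes, and 3 had a difference of 0 in one experiment. The 2 experiments differed by a median of 0.08 on the log2 scale in the members, the same as over all genes.

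**Figure D2:**
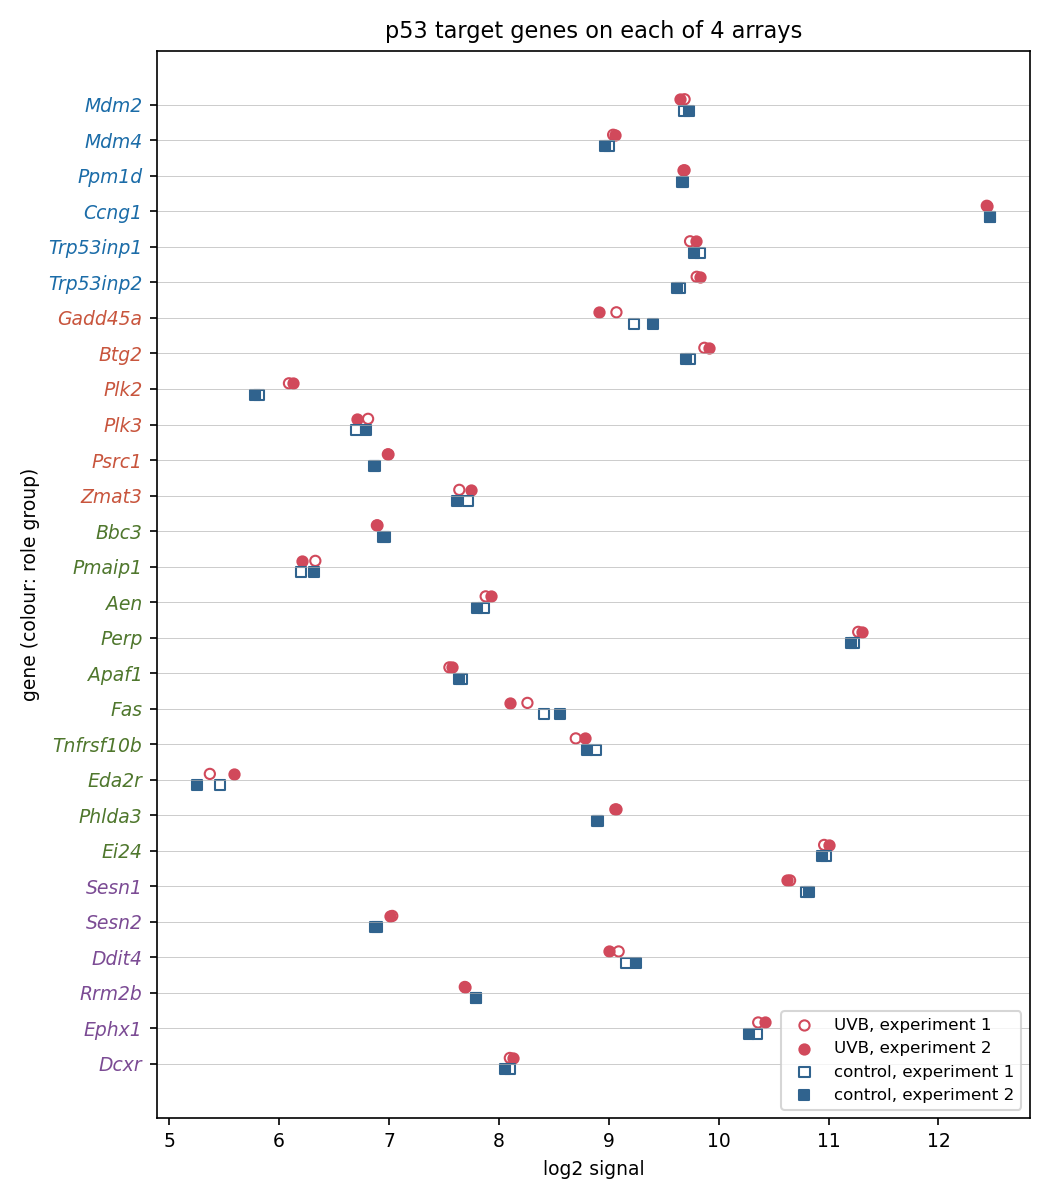
Log2 signal (horizontal) of each measured p53 target gene (vertical, label colour by role) on the 4 arrays. Red circles are UVB-irradiated and blue squares control epithelia, open for experiment 1 and filled for experiment 2; the circles of Plk2 lie to the right of its squares, and those of Gadd45a and Fas to the left of theirs.

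The promoters of the 3 genes past 1.2-fold, and of Ccng1 and Mdm2, a pair of textbook p53 targets whose signals hardly differed, are printed to show what the sequence before each gene holds. The p53 half-site decamer is a run of purines, a C, a pair of A or T bases, a G and a run of pyrimidines, and it reads the same on both strands. Capitals mark each decamer, and in Ccng1 also the adjoining decamer with 1 mismatch. Each sequence is 300 bases from RefSeq in build GRCm38.p6, from 250 before to 50 after the gene start, 5′ to 3′ on the strand of the gene: Plk2 at chr13:110394794-110395093 (+), Gadd45a at chr6:67037358-67037657 (−), Fas at chr19:34290409-34290708 (+), Ccng1 at chr11:40755237-40755536 (−) and Mdm2 at chr10:117710709-117711008 (−).
Plk2: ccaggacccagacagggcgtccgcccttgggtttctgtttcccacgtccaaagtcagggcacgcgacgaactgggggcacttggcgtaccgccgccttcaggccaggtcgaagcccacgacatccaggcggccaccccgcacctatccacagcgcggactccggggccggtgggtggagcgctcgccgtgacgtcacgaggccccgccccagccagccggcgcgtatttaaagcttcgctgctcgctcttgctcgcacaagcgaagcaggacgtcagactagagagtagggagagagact
Gadd45a: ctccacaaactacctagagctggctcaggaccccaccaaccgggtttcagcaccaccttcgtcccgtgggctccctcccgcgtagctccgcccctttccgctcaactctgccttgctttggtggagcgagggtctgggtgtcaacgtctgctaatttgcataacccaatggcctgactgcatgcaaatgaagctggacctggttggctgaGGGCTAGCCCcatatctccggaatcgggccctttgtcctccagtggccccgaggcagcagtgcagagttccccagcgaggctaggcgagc
Fas: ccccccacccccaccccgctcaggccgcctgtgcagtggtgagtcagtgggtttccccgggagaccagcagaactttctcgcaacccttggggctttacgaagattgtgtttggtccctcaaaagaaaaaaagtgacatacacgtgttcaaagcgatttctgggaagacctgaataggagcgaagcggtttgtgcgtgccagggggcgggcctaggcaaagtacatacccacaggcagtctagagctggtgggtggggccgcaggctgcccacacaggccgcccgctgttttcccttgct
Ccng1: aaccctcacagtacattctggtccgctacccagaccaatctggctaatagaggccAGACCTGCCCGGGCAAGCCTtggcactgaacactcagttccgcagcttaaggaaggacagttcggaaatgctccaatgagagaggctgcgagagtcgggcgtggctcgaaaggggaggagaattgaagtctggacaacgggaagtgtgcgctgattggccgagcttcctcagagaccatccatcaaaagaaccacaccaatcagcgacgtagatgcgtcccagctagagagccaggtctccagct
Mdm2: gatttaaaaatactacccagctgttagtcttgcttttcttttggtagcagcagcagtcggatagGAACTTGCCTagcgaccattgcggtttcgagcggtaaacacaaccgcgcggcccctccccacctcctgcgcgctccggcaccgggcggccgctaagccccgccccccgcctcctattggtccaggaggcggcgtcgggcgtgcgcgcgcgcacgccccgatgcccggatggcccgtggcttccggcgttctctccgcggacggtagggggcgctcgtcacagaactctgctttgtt

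The decamer was found at position −40 from the gene start in Gadd45a, at −185 in Ccng1 and at −186 in Mdm2, and in neither the Plk2 nor the Fas window. Of the 28 measured members, 22 had an entry in the promoter table, and 7 of these held a decamer in at least one promoter, which was so for 9.55% of the 27025 genes listed. The others were Aen, Ei24, Ppm1d and Sesn1, the last in the second of its promoters. An adjoining pair of decamers with at most 1 mismatch stood in Ccng1 alone among the 22 members with an entry. Counted by promoter and not by gene, it stood in 0.067% of the 32851 promoters. This rule was chosen after other rules had been counted, so its rarity is no test. Perp, Pmaip1, Rrm2b, Tnfrsf10b, Trp53inp1 and Zmat3 had no entry. A match is a description of these letters, and p53 sites of Mdm2 and Gadd45a are best known from introns, outside these windows.

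Among the feedback genes, the regulators that act on p53 itself hardly moved. Mdm2, the ubiquitin ligase that p53 induces and that degrades p53, had log2 signals of 9.69 and 9.65 in UVB-irradiated epithelia, against 9.69 and 9.73 in control epithelia, in experiments 1 and 2. The arrays met at 9.69 in experiment 1, and the log2 fold change was −0.04 (standard error 0.038, 95% interval −0.19 to 0.11). Mdm4, which binds and silences p53, was higher by 0.04 and 0.09 in the 2 experiments, with a log2 fold change of 0.065. Ppm1d, the phosphatase Wip1 that resets the damage signal, differed by 0.02 and 0, and Ccng1, the cyclin G1 that directs a phosphatase to Mdm2, by −0.03 in each. Trp53inp1, a cofactor of p53 in stress, had differences of −0.09 and 0.01.

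Trp53inp2, a relative of Trp53inp1 known for its role in autophagy, was the 1 feedback gene with an unadjusted p under 0.05 from limma. Its log2 signals were 9.80 and 9.83 in UVB-irradiated epithelia, against 9.65 and 9.62 in control epithelia. Both UVB arrays were higher, by a mean of 0.18 on the log2 scale (standard error 0.034), or 1.13-fold, at an unadjusted p of 0.0282 from limma (adjusted p = 0.357, and 0.0321 without the block). The median over the 6 feedback genes was −0.01.

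The arrest genes held both the largest increase and the largest decrease among the 28. Plk2 (probe set 10407126), a polo-like kinase of centriole duplication and stress checkpoints, had log2 signals of 6.09 and 6.13 in UVB-irradiated epithelia, against 5.82 and 5.78 in control epithelia. The UVB array was higher by 0.27 in experiment 1 and by 0.35 in experiment 2. On average the increase was 0.31 on the log2 scale (standard error 0.038, 95% interval 0.16 to 0.46), or 1.24-fold, at an unadjusted p of 0.0116 from limma (adjusted p = 0.357, and 0.0250 without the block). These signals lay below the array medians, which were 7.19 to 7.22, and 97.8% of all genes had a change of this size or lower. Plk3, a second polo-like kinase, differed by 0.11 in experiment 1 and −0.08 in experiment 2.

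Gadd45a (probe set 10545130), a stress sensor that binds cell cycle and repair proteins, was lower after UVB in both experiments. Its log2 signals were 9.07 and 8.91 in UVB-irradiated epithelia, against 9.23 and 9.40 in control epithelia. The difference was larger in experiment 2 (−0.49) than in experiment 1 (−0.16). The mean log2 fold change of −0.33 (standard error 0.12) put it at 0.798 of its control level, at an unadjusted p of 0.0961 from limma (adjusted p = 0.376, and 0.130 without the block). Without UVB replicate 2 it was −0.25, and without control replicate 2 −0.24, both under 1.2-fold. Since the experiments had equal means, leaving out either array of an experiment gives the same value apart from rounding. The pair of values is therefore a single check.

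The other arrest genes were higher or mixed. Btg2, an antiproliferative partner of mRNA deadenylases, had log2 signals of 9.87 and 9.91 in UVB-irradiated epithelia, against 9.74 and 9.70 in control epithelia. Both UVB arrays were higher, with a log2 fold change of 0.17 (standard error 0.038) and an unadjusted p of 0.0406 from limma (adjusted p = 0.357). Psrc1, a microtubule-binding protein of the spindle, was higher by 0.12 and 0.13, at an unadjusted p of 0.0384. Zmat3, a zinc finger protein that binds RNA, differed by −0.08 and 0.13.

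Of the 10 death genes, 3 were higher and 4 lower in both experiments, and 3 moved in opposite directions. Over all genes, 22.6% were higher, 39.5% lower and 30.8% opposite, so these counts are near the shares of all genes. Bbc3, which encodes the BH3-only protein Puma, had log2 signals of 6.89 and 6.89 in UVB-irradiated epithelia, against 6.95 and 6.96 in control epithelia. Both UVB arrays were lower, by a log2 fold change of −0.065 (standard error 0.028, adjusted p = 0.410 from limma, and 0.0426 without the block). Pmaip1, the BH3-only protein Noxa, differed by 0.13 and −0.11. Apaf1, the scaffold of the apoptosome, was lower by 0.11 in experiment 1 and by 0.07 in experiment 2. Aen, a nuclease of apoptosis, was higher by 0.02 and 0.13, and Perp, a membrane protein of desmosomes and of p53-dependent death, by 0.04 and 0.10. Ei24, a protein of the endoplasmic reticulum, differed by −0.02 and 0.06.

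Fas and Tnfrsf10b, both death receptors, were lower in both experiments. Fas (probe set 10462603), the receptor of Fas ligand, had log2 signals of 8.26 and 8.10 in UVB-irradiated epithelia, against 8.41 and 8.56 in control epithelia. As in Gadd45a, the difference was larger in experiment 2 (−0.46) than in experiment 1 (−0.15). The mean log2 fold change of −0.31 (standard error 0.11) put it at 0.809 of its control level, at an unadjusted p of 0.0969 from limma (adjusted p = 0.378). Without UVB replicate 2 it was −0.23, and without control replicate 2 −0.23, both under 1.2-fold and, as in Gadd45a, a single check. Tnfrsf10b, the TRAIL receptor of the mouse, was lower by 0.18 in experiment 1 and by 0.02 in experiment 2.

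Eda2r (probe set 10605874), the receptor of ectodysplasin A2, moved in opposite directions. Its log2 signals were 5.37 and 5.59 in UVB-irradiated epithelia, against 5.46 and 5.25 in control epithelia, so the groups overlapped. The differences were −0.09 in experiment 1 and 0.34 in experiment 2, the largest gap of any member at 0.43. Phlda3, which restrains the kinase Akt, was in contrast nearly equal in the experiments, with 9.06 and 9.07 in UVB-irradiated epithelia, against 8.90 and 8.89 in control epithelia. Its log2 fold change was 0.17 (standard error 0.028), at an unadjusted p of 0.0214 from limma (adjusted p = 0.357, and 0.0215 without the block).

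The metabolism genes included a pair of sestrins that differed in direction. Sestrins are stress proteins that restrain the growth kinase mTORC1. Sesn1 had log2 signals of 10.65 and 10.62 in UVB-irradiated epithelia, against 10.80 and 10.82 in control epithelia, and its log2 fold change was −0.18 (standard error 0.032). Both UVB arrays were lower, at an unadjusted p of 0.0265 from limma (adjusted p = 0.357), and no other lower member passed an unadjusted 0.05 with the block. Sesn2 had log2 signals of 7.03 and 7.01 in UVB-irradiated epithelia, against 6.87 and 6.89 in control epithelia. Both UVB arrays were higher, with a log2 fold change of 0.14 (standard error 0.030) and an unadjusted p of 0.0375 (adjusted p = 0.357).

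Ddit4, which also inhibits mTORC1, was lower by 0.07 in experiment 1 and by 0.25 in experiment 2. Rrm2b, a ribonucleotide reductase subunit that supplies nucleotides for repair, had log2 signals of 7.69 and 7.69 in UVB-irradiated epithelia, against 7.79 and 7.79 in control epithelia. This was lower by 0.10 in each experiment, at an unadjusted p of 0.0589 from limma (adjusted p = 0.357). Ephx1, the microsomal epoxide hydrolase, was higher by 0.01 and 0.14, and Dcxr, a reductase of sugars and dicarbonyls, differed by 0 and 0.07. The median over the 6 metabolism genes was −0.033, against 0.075 over the 6 arrest genes and 0.015 over the 10 death genes.

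**Figure D3:**
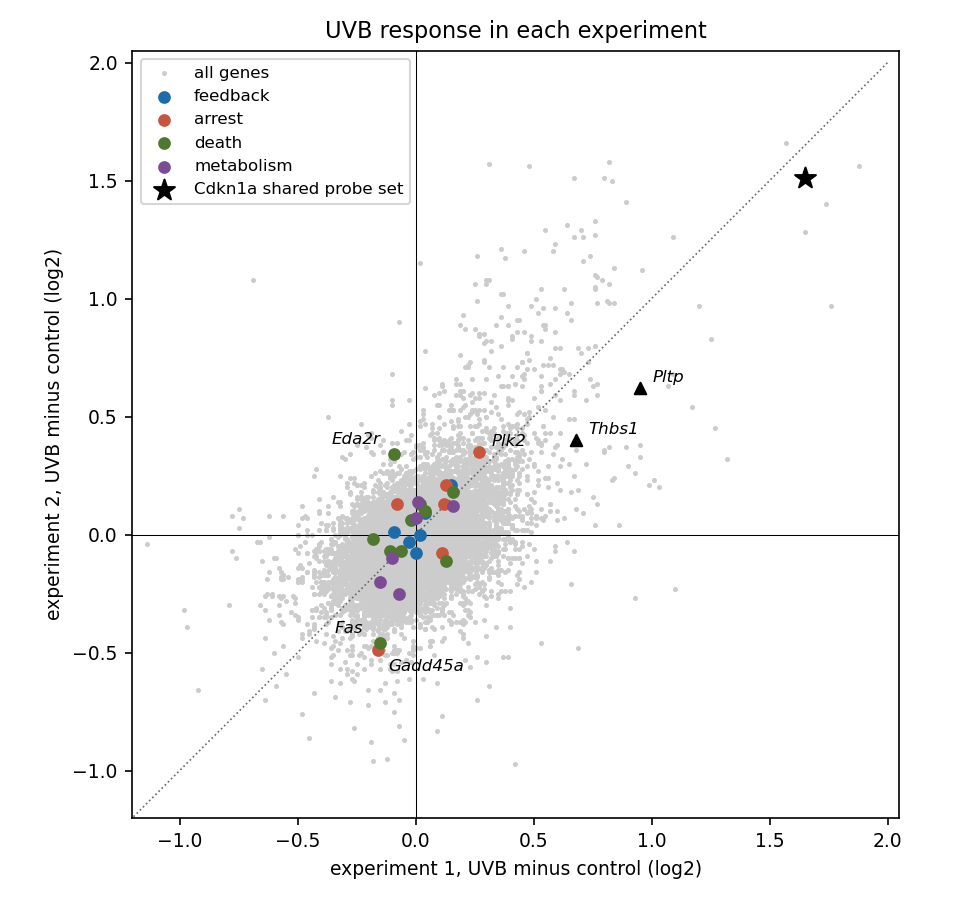
UVB minus control in log2 signal in experiment 1 (horizontal) and experiment 2 (vertical) for all 19938 genes (grey), the 28 p53 target genes (coloured by role), Thbs1 and Pltp (triangles) and the probe set shared by Cdkn1a (star). Equal changes lie on the dotted line; the members lie near the origin, between −0.18 and 0.27 in experiment 1 and between −0.49 and 0.35 in experiment 2, and the star lies at 1.65 and 1.51.

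Other genes of the p53 pathway mostly showed changes under 1.2-fold, with 2 exceptions. Of 33 measured further p53 targets, such as the repair genes Ddb2 and Xpc, the median log2 fold change was 0.01, and 10 were higher and 13 lower in both experiments, against 22.6% and 39.5% of all genes. More than 1.2-fold higher in both experiments were Pltp, a phospholipid transfer protein, and Thbs1, the matrix protein thrombospondin 1, and 0 were as much lower. By the same rule 2.99% of all genes were higher and 1.98% lower. Pltp had log2 signals of 8.23 and 8.07 in UVB-irradiated epithelia, against 7.28 and 7.45 in control epithelia. Thbs1 had 8.46 and 8.32 in UVB-irradiated epithelia, against 7.78 and 7.92 in control epithelia. The UVB arrays were higher in both genes, with log2 fold changes of 0.79 for Pltp and 0.54 for Thbs1, or 1.72-fold and 1.45-fold. Both missed the thresholds of the methods, at unadjusted p-values of 0.0166 for Pltp and 0.0262 for Thbs1 from limma (adjusted p = 0.357 for each). In this list 0 genes passed those thresholds, where 0.0802% of all genes passed as higher and 0% as lower. At an unadjusted p of 0.05 from limma with the block, 2 were higher and 3 lower, against 5.14% and 8.03% of all genes.

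The 29 measured genes that control p53, among them the damage kinases Atm and Atr and the deubiquitinase Usp7, all changed by under 1.2-fold. Their log2 fold changes ran from −0.16 in Atm to 0.11 in Rchy1, a ubiquitin ligase of p53, with a median of −0.015. None passed the thresholds, and at an unadjusted p of 0.05 limma with the block called 0 higher and 1 lower. Over all genes, 94.9% changed by under 1.2-fold and 0.0802% passed the thresholds as higher. The same fit called 5.14% of all genes higher and 8.03% lower at an unadjusted p of 0.05.

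Markers of photoreceptors and pigment epithelium were higher in the UVB arrays. The study dissected other eye tissues away from the lens, and the paper proposes that Otx2 raised the retina-related genes. It cites an overlap with genes raised in lens cells that overexpress Otx2, with those data not shown. Otx2 (log2 fold change 0.91) and Crx (0.66) are themselves counted in these lists. The source of the rise was not tested here. All 17 measured photoreceptor genes were higher in both experiments (median 0.97), with linear signals summing to 16590 and 20270 in UVB-irradiated epithelia, against 10580 and 8693 in control epithelia. Of 15 genes of pigment epithelium and melanin, 14 were higher in both (median 0.79), with sums of 7306 and 7051 in UVB-irradiated epithelia, against 3388 and 3473 in control epithelia. The 15 lens epithelium markers all lay above the array medians and had a median of 0, with sums of 55590 and 56530 in UVB-irradiated epithelia, against 56320 and 55420 in control epithelia. The 15 lens fiber genes had a median of −0.03 (range −0.395 to 0.07, the lowest in Birc7), with 8 lower and 5 higher in both experiments. Of 12 leukocyte genes, 8 were higher in both experiments (median 0.083, range −0.195 to 0.68), with 3 above the array medians. The 9 cornea genes had a median of 0.03 (0.12 in experiment 1 and −0.09 in experiment 2). Their differences varied between the experiments by a median of 0.41, against 0.08 over all genes. The largest gap was 1.33, in Krt5 (1.10 in experiment 1 and −0.23 in experiment 2). The 8 blood vessel genes had a median of −0.12 (range −0.24 to 0.385, the highest in Kdr), with 5 lower and 2 higher in both. Over all genes, 22.6% were higher and 39.5% lower in both experiments. No marker can be read as absent, since the files give no background level, and the part of these tissues in the values of the p53 targets was not tested.

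**Figure D4:**
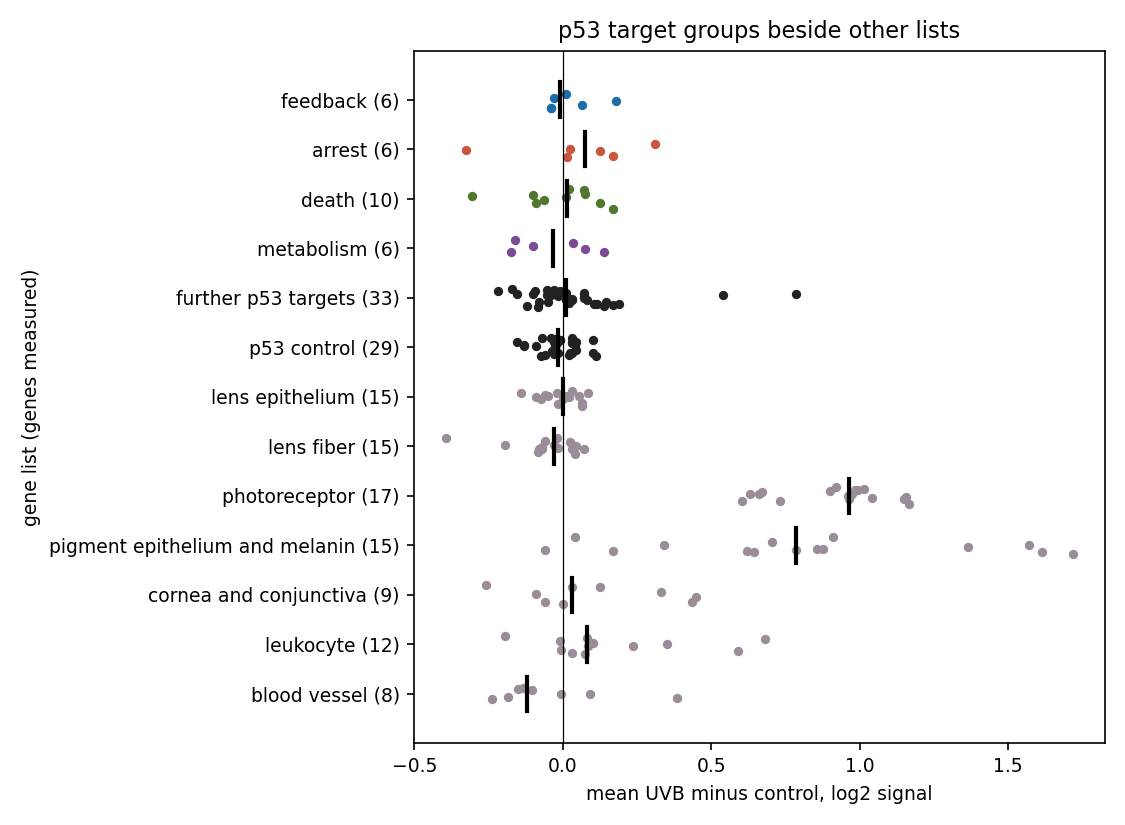
Mean UVB minus control in log2 signal (horizontal) of each gene in the 4 role groups of p53 targets, in 2 further p53 lists and in 7 lists of tissue markers (vertical, with the number of genes measured). Each point is a gene and each black bar the median of its list; the bars of the p53 groups lie between −0.033 and 0.075, those of photoreceptor and pigment epithelium genes at 0.97 and 0.79.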

How the data were processed

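RNA of lens epithelia from irradiated and covered eyes was hybridized to 4 Affymetrix gene arrays, and the title of each array gave its group and experiment, with an unnumbered title taken as experiment 1. The authors deposited log2 signals for 28944 probe sets, normalized with Affymetrix Expression Console and rounded. No source used here states the software version or how background and probe summaries were computed. A human array is named in the methods, whereas the probe sets carry mouse gene symbols in the annotation used. Of the probe sets, 21789 had 1 symbol, 1621 several and 5534 none, and only the first were given to a gene.

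Differences were fitted with limma 3.58.1 (R 4.3.3) over all probe sets, two-sided, with Benjamini-Hochberg adjustment over all of them. The experiment was a block, since the methods pair the eyes of each mouse. In 100% of the probe sets the 2 experiments had equal sums within 0.02, by a step that no source names. Same-numbered arrays therefore deviated from their group means with a correlation of −0.998. The fit was tested on simulated data. The thresholds of 1.8-fold and p of 0.01 are those of the methods.

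The members, the gene lists and the use of the block were chosen with earlier results of these data known. Every member is named. Members past 1.2-fold in both experiments, or opposite in them by 0.3 or more, were to be given on each array, and of the further p53 lists the genes past 1.2-fold. Other genes given on each array, the promoters printed and the genes quoted as examples were chosen after their values were seen. The rule of an adjoining pair with at most 1 mismatch was chosen after pairs with spacers and other mismatch limits had also been counted. Percentages over all genes refer to the 19938 genes with their own probe set. Signal sums are sums of 2 to the power of the log2 signal. The number of arrays limits the precision of every value. Alternatives were the fit without the block, other scalings, probe set choices, priors and fold thresholds, a paired t-test, each experiment alone and each array left out.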

Additional observations from a re-analysis of the deposited data

How the results depend on the processing

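No member passed the thresholds of the methods under any alternative run. Without the replicate block, 9 members had an adjusted p under 0.05 in limma, and in the paired t-test without moderation 2 did, Ccng1 and Rrm2b, whose rounded differences were equal in the 2 experiments. Under the other alternatives none did. With 1.5-fold in place of 1.2-fold, 0 members were higher and 0 lower in both experiments. When only probe sets above the median signal were kept, 21 members were tested, Plk2 was not among them, and 0 were 1.2-fold higher. Leaving out 1 array at a time, fitted without the block, gave 0 to 2 members 1.2-fold lower, with 0 when either array of experiment 2 was left out. Centring each array on its median gave −0.01 for Ppm1d, −0.005 for Plk3 and −0.01 for Pmaip1. Without 1 array, Plk3 ranged from −0.035 to 0.065, Pmaip1 from −0.05 to 0.07 and Zmat3 from −0.03 to 0.08. Since the experiments had equal means, leaving out either array of an experiment gave the same value apart from rounding, so these are not separate checks. In experiment 1 alone the sign turned for Zmat3 (−0.08), Eda2r (−0.09) and Ei24 (−0.02), and in experiment 2 alone for Trp53inp1 (0.01), Plk3 (−0.08) and Pmaip1 (−0.11). Mdm2 and Dcxr were at 0 in experiment 1 alone and Ppm1d at 0 in experiment 2 alone, and Ei24 was at 0 after centring and without either array of experiment 2. The other members kept their direction under the alternatives in which they were tested. For these turns the cause was not tested. The files give no detection level, so whether the probe sets below the array medians, such as those of Plk2 and Eda2r, were above background was not tested.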
